A study of Mus musculus with 6 samples.

Results

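The genes described here are the MHC and antigen presentation genes of the mouse lung, 56 of the 24054 gene rows of the deposited table. They were chosen by symbol and not by their values: every symbol that starts with H2-, the prefix of the mouse major histocompatibility complex (MHC), and B2m, Tap1, Tap2, Tapbp, Cd74, Ciita, Nlrc5, Psmb8, Psmb9, Psmb10, Psme1 and Psme2. The 56 fall into 3 classical class I genes, 29 nonclassical class I genes, 11 class II genes (10 of them H2- genes, plus Cd74), 9 genes that supply class I molecules with peptide or with their light chain, and 2 transcriptional regulators. The other 2, H2-Ke2 and H2-Ke6, carry the prefix through their position and belong to no MHC family. A mean of at least 1 over the 6 libraries was required for testing, which 42 of the 56 met. Of the 14 that did not, 12 were nonclassical class I genes and 2 were class II genes, and 8 were listed at 0 in every library.

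The libraries came from the lungs of 6 female SCID mice, a host without mature B and T cells that keeps its natural killer (NK) and myeloid cells. In the Tsc1-null EV group, 3 mice received extracellular vesicles (EVs) that Tsc1-deficient neural progenitors had released, where Tsc1 is a brake on mTOR signalling. The progenitors came from mouse embryos at E15.5. In the WT EV group, 3 mice received EVs of wild-type progenitors. In both groups the vesicles carried CD9, CD63 and CD81, were fluorescently labelled and went into the tail vein. All 6 mice also received rat ELT3 cells, a line used as a model of lymphangioleiomyomatosis, by the intravenous route 48 hours after the vesicles, and the lungs were taken 72 hours after the cells. The genotype therefore belongs to the vesicle donors and not to the lungs, and lungs without vesicles or without ELT3 cells were not analysed here. The comparison asks how the lung environment of tumour cells differs after Tsc1-null vesicles. The labels name neither the age nor the MHC haplotype of the hosts.

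MHC class I molecules consist of a polymorphic heavy chain (H2-K1, H2-D1 and, in some haplotypes, H2-L), the light chain beta-2 microglobulin and a peptide cut by the proteasome, carried into the endoplasmic reticulum by the TAP transporter and loaded with the help of tapasin. They stand on nearly all nucleated cells and are shown to cytotoxic T cells and NK cells. Class II molecules (H2-A and H2-E) are heterodimers of an alpha and a beta chain that assemble with the invariant chain Cd74 and receive endosomal peptides with the help of H2-DM. In the lung they are found on dendritic cells, macrophages and B cells and also on alveolar type 2 cells. Interferon gamma raises both sets, class I through Nlrc5 and class II through Ciita.

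Values are TMM-normalized CPM, read counts scaled to the size of each library, as the authors deposited them. Each library is given as replicate 1, 2 and 3 of its group. Whole reads behind the values came to 5101413 to 9358820 per library, with Tsc1-null EV replicate 1 the shallowest. A library of each group stood apart from the rest. Tsc1-null EV replicate 1 and WT EV replicate 2 held 30060 and 15673 CPM of the nuclear RNA Malat1, against 1609 to 2819 CPM in the other 4 libraries. Their ribosomal RNA precursor Rn45s was at 13776 and 10881 CPM, against 3293 to 6120 CPM in the others. Results are therefore also given without these libraries, which leaves 2 mice per group, and the part of RNA quality in them was not tested. The p-values of limma weigh the difference between the groups against the spread of lungs within them, as if the mice were independent. The labels do not say how the mice were handled together, so that independence was not tested.

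Among the 42 tested genes, no gene passed limma's test at an adjusted p under 0.05, and 1 had an unadjusted p under 0.05. The background was the same in kind, with 0 of 14159 genes (0%) called and 930 (6.57%) at an unadjusted p under 0.05. The log2 fold of Tsc1-null EV over WT EV was above 0 for 19 of the 42 and below 0 for 23, against 47.3% above 0 among all tested genes. The 2 groups did not overlap for 1 of the 42, H2-L, which was lower in all 3 Tsc1-null EV lungs. For none of the 42 did every Tsc1-null EV value lie above every WT EV value. Over all tested genes, 13.1% did not overlap in either direction, 6.86% being higher and 6.22% lower in the Tsc1-null EV lungs. Without the 2 libraries that stood apart, 31 of the 42 log2 folds were above 0, against 49.5% of all tested genes. There, 12 of the 42 did not overlap (10 higher, 2 lower), against 42.3% of all tested genes (20.8% higher, 21.5% lower), which with 2 mice per group is a weak criterion. In lung tissue, fewer cells of a type and less RNA per cell cannot be told apart.

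**Figure D1:**
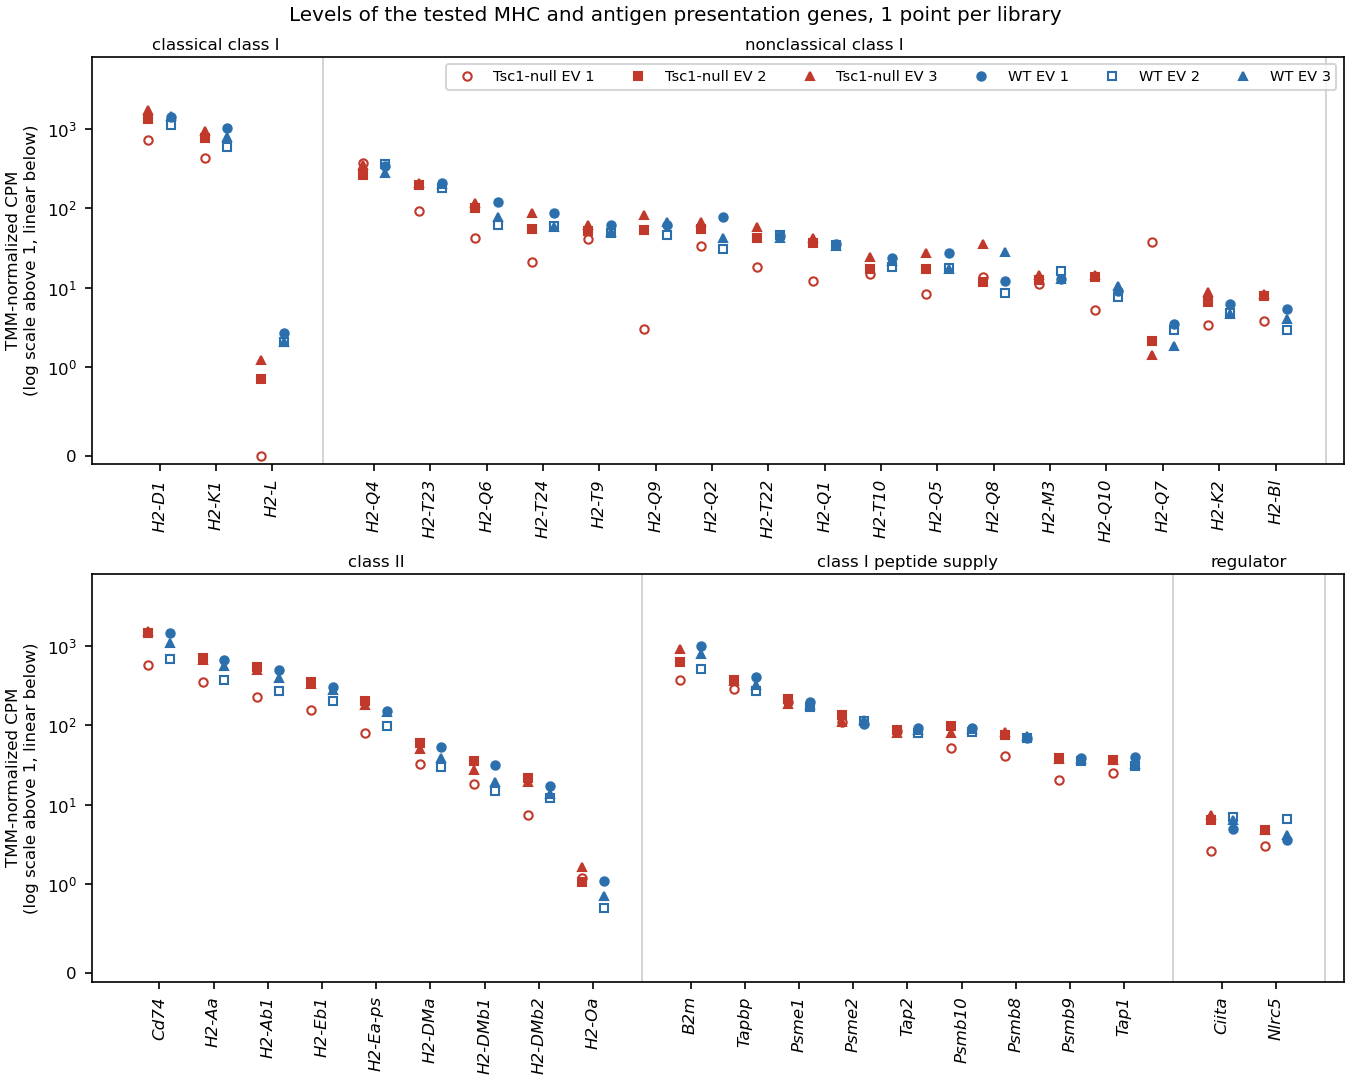
TMM-normalized CPM (log scale above 1, linear below) of 40 tested genes in each library, ordered by class and by level, with Tsc1-null EV libraries in red left of WT EV libraries in blue; H2-Ke2 and H2-Ke6 are not plotted. Open symbols are the 2 libraries that stood apart, and 1 of them, Tsc1-null EV replicate 1, is the lowest point of most genes.

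The classical class I heavy chains were among the most abundant of these genes. H2-D1 averaged 489 CPM per kilobase of annotated exon in Tsc1-null EV lungs and 513 in WT EV lungs, and H2-K1 244 and 268. Only B2m, at 739.99 and 889 CPM per kilobase, and Cd74, at 709 and 636, were higher per length among the 51 genes that GENCODE M21 annotates. H2-D1 was at 728, 1313 and 1739 CPM in Tsc1-null EV lungs and at 1407, 1110 and 1453 CPM in WT EV lungs. H2-K1 was at 433, 769 and 944 CPM in Tsc1-null EV lungs and at 1005, 583 and 774 CPM in WT EV lungs. Tsc1-null EV replicate 1 was the lowest library for both genes, and the groups overlapped. The log2 fold was −0.15 ± 0.32 (SE, n = 3 each) for H2-D1, with an adjusted p of 0.946 in limma, and −0.18 ± 0.32 for H2-K1, with an adjusted p of 0.936 in limma. The 95% interval of the H2-D1 fold ran from 0.547 to 1.49.

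The ratio of the 2 heavy chains moved much less than their levels. H2-K1 over H2-D1 was 0.595, 0.585 and 0.543 in Tsc1-null EV lungs and 0.714, 0.525 and 0.533 in WT EV lungs. The means were 0.575 ± 0.028 and 0.591 ± 0.107 (SD, n = 3 each). WT EV replicate 1 gave the highest ratio, and the values of the other 5 lungs lay between 0.525 and 0.595. The light chain followed the heavy chains: B2m over the sum of H2-K1 and H2-D1 was 0.324, 0.297 and 0.341 in Tsc1-null EV lungs and 0.415, 0.299 and 0.352 in WT EV lungs. Of 13 ratios computed among these genes, none separated the groups, and the smallest two-sided exact permutation p was 0.2 (0.65 after adjustment over the 13), where 3 against 3 lungs cannot go below 0.1.

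H2-L, the third classical heavy chain, was a low-count gene. It was at 0, 0.863 and 1.22 CPM in Tsc1-null EV lungs and at 2.68, 2.06 and 2.1 CPM in WT EV lungs. These values rest on 0, 8 and 11 recovered reads in Tsc1-null EV lungs and on 22, 14 and 17 in WT EV lungs. The groups did not overlap, and the log2(CPM + 1) difference was −1.03 ± 0.34 (SE), with an unadjusted p of 0.0161 and an adjusted p of 0.721 in limma. In edgeR on the recovered reads the adjusted p was 0.712. H2-L was singled out after its values were seen, since its mean lies under the 5 CPM set for giving folds. H2-L is known as a close relative of H2-D1, and no entry of GENCODE M21 was matched to the symbol H2-L. The sum of both genes was 728, 1314 and 1740.3 CPM in Tsc1-null EV lungs and 1410.0, 1112 and 1455 CPM in WT EV lungs, which overlapped. Reads of H2-L and H2-D1 may have been divided between the copies, and this was not tested.

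Class I genes share much of their exon sequence, which limits how far reads can be assigned to a single gene. Exon 4 of these genes encodes the alpha-3 domain, the conserved part of the heavy chain that contacts CD8, and is 276 bases long. It is shown for 2 nonclassical Q region genes, H2-Q6 (chr17:35427864-35428139, plus strand) and H2-Q7 (chr17:35442267-35442542, plus strand), and for H2-D1 (chr17:35265784-35266059, plus strand) and H2-K1 (chr17:33997285-33997560, minus strand). The sequences are GENCODE M21 transcripts on GRCm38 (mm10), 5′ to 3′, and capitals mark the bases that differ from H2-Q6.
H2-Q6: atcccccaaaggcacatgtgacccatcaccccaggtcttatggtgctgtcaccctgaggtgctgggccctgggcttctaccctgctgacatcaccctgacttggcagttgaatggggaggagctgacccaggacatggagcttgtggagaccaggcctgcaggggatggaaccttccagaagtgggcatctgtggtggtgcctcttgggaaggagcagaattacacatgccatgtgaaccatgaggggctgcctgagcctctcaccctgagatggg
H2-Q7: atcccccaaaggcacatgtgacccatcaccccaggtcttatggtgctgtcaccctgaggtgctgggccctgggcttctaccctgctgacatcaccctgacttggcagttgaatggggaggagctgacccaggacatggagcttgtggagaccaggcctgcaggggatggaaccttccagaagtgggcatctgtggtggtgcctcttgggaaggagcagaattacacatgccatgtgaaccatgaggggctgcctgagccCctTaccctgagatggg
H2-D1: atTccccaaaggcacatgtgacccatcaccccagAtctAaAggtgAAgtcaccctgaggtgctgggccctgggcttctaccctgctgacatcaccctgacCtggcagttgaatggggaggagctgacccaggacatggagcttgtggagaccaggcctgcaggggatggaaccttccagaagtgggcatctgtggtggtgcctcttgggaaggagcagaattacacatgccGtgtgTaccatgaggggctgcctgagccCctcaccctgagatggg
H2-K1: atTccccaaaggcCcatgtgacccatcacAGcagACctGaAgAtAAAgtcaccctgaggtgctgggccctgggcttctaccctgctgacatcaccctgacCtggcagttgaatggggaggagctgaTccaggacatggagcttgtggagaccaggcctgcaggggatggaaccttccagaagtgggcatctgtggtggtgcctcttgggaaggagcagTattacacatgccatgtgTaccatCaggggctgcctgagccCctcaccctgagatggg
H2-Q7 differs from H2-Q6 at 2 of the 276 bases and shares an unbroken run of 259 bases with it. H2-D1 differs from H2-Q6 at 10 bases and H2-K1 at 18, and H2-K1 and H2-D1 differ from each other at 11. Over whole transcripts, words of 50 bases that also occur in another gene made up 36.5% of the words of H2-Q5, 34.5% of H2-T22, 32.9% of H2-T10, 32.0% of H2-Q6 and 26.4% of H2-Q7. They made up 12.8% of H2-D1 and 9.63% of H2-K1. For B2m, Cd74, H2-Ab1, H2-Eb1 and H2-Ea-ps there were 0 such words, and for H2-Aa they made up 0.488%. The share was 21.8% for H2-Q4, 13.6% for H2-T23 and 3.17% for H2-T24. Levels of genes with a high share are uncertain between copies. These shares describe the reference strain, which carries the b haplotype, and count only genes that GENCODE M21 names. H2-Q8, H2-Q9, H2-L and H2-T9 were not matched there. Words shared with them were not counted under those symbols, so the shares may be too low. Since the haplotype of the hosts is not named, the levels and ratios of H2-K1, H2-D1, H2-L and H2-Ea-ps are uncertain in a way these shares do not measure. The same may hold for the other H2- genes, those of class II and of the Q region included.

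The nonclassical class I genes, which show little polymorphism and have narrower roles, were the largest set, with 17 of 29 tested. Their median log2 fold was −0.08, against −0.02 over all tested genes, with 6 of 17 above 0. It was 0.05 without the 2 libraries that stood apart, and 0.15 without Tsc1-null EV replicate 1 alone. H2-T23, which encodes Qa-1, the ligand of the inhibitory NK receptor NKG2A, was at 93.2, 198 and 204 CPM in Tsc1-null EV lungs and at 208, 177 and 199.5 CPM in WT EV lungs. Only Tsc1-null EV replicate 1 left the range of the others. H2-T24 was at 21.0, 55.2 and 87.1 CPM in Tsc1-null EV lungs and at 88.1, 58.8 and 57.6 CPM in WT EV lungs, with a log2 fold of −0.51 ± 0.44 (SE) and an adjusted p of 0.829 in limma. H2-T22 and its close copy H2-T10 are ligands of gamma delta T cells. H2-T22 was at 18.2, 41.7 and 58.1 CPM in Tsc1-null EV lungs and at 44.6, 45.6 and 42.7 CPM in WT EV lungs.

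H2-Q4 was the most abundant nonclassical gene and did not follow this pattern. It was at 373, 263 and 345 CPM in Tsc1-null EV lungs and at 340.3, 361 and 279 CPM in WT EV lungs. Its highest value lay in the library where most class I genes were lowest. The means were 327 ± 56.9 and 327 ± 42.7 CPM (SD, n = 3 each), and the 95% interval of the fold ran from 0.742 to 1.34. H2-M3, which presents N-formylated peptides of bacteria and mitochondria, also varied little, at 11.0, 12.4 and 14.5 CPM in Tsc1-null EV lungs and at 12.9, 16.2 and 13.0 CPM in WT EV lungs. H2-Bl had the lowest p of the nonclassical genes, at 3.81, 7.76 and 8.40 CPM in Tsc1-null EV lungs and at 5.37, 2.94 and 4.07 CPM in WT EV lungs. Its log2 fold was 0.55 ± 0.31 (SE), with an adjusted p of 0.743 in limma. GENCODE annotates H2-Bl, like H2-Q5 and H2-T10, as a polymorphic pseudogene, and H2-K2 as a transcribed unprocessed pseudogene. When limma weighted libraries by their scatter around the fitted group means, H2-Bl passed as higher (adjusted p = 0.0337) and H2-L as lower (adjusted p = 0.0441). These were 2 of 42 genes, against 7.42% of all tested genes under that fit (3.3% lower).

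H2-Q6, H2-Q7, H2-Q8 and H2-Q9 lie in the Q region, and H2-Q7 and H2-Q9 are known to encode the Qa-2 antigen. H2-Q9 was at 3.01, 53.5 and 81.4 CPM in Tsc1-null EV lungs and at 60.7, 45.9 and 67.9 CPM in WT EV lungs. H2-Q7 showed the reverse, at 37.3, 2.16 and 1.44 CPM in Tsc1-null EV lungs and at 3.54, 2.94 and 1.85 CPM in WT EV lungs. In Tsc1-null EV replicate 1 nearly all of the signal of the pair thus stood under H2-Q7, and in the other 5 lungs under H2-Q9. The ratio of H2-Q9 to H2-Q7 was 0.0806 in that library and between 15.6 and 56.7 in the other 5. The sum of the 2 genes did not show this switch: it was 40.3, 55.6 and 82.9 CPM in Tsc1-null EV lungs and 64.3, 48.8 and 69.7 CPM in WT EV lungs.

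The switch within the pair is confined to 1 library and sets the fitted values of both genes. The log2 fold of H2-Q7 was 0.84 ± 0.90 (SE) with all libraries and −0.42 without Tsc1-null EV replicate 1. That of H2-Q9 was −1.16 ± 0.95 with all libraries and 0.20 without it. H2-Q8 was high in replicate 3 of both groups, at 13.6, 11.6 and 34.9 CPM in Tsc1-null EV lungs and at 12.1, 8.67 and 28.0 CPM in WT EV lungs. H2-Q6 was at 41.7, 100.1 and 117 CPM in Tsc1-null EV lungs and at 119, 60.7 and 77.5 CPM in WT EV lungs, without such a split. The sum of the 4 genes was 95.6, 167 and 235 CPM in Tsc1-null EV lungs and 195, 118 and 175 CPM in WT EV lungs.

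**Figure D2:**
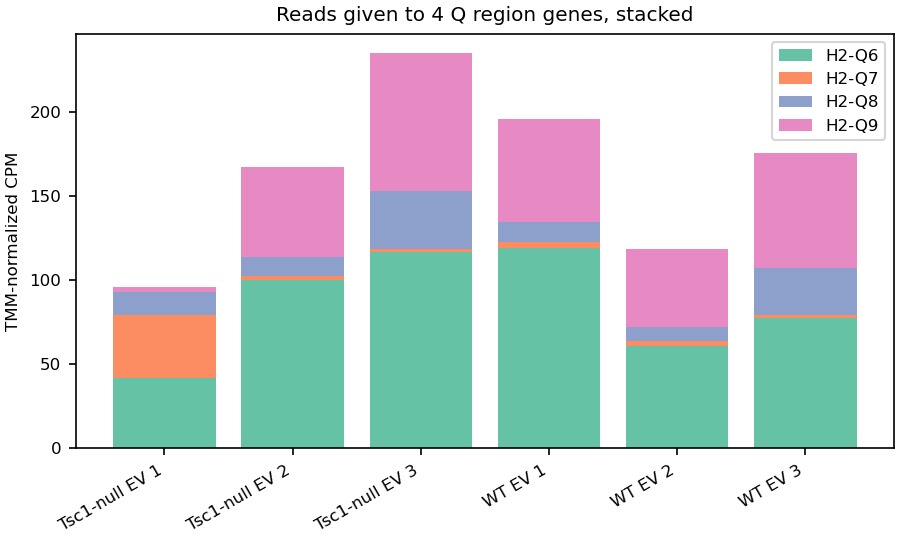
TMM-normalized CPM of H2-Q6, H2-Q7, H2-Q8 and H2-Q9 in each library, Tsc1-null EV replicates left of WT EV replicates. H2-Q9 stands at 3.01 CPM and H2-Q7 at 37.3 CPM in Tsc1-null EV replicate 1, while H2-Q9 lies between 45.9 and 81.4 CPM and H2-Q7 between 1.44 and 3.54 CPM in the other 5 libraries.

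The 12 nonclassical genes below the filter were mostly those of the M region. H2-M1, H2-M9, H2-M11 and 5 of the 6 H2-M10 genes, a family known from the vomeronasal organ, were listed at 0 in all 6 libraries, and H2-M10.4 averaged 0.0184 CPM. H2-M2, H2-T3 and H2-M5 averaged 0.735, 0.510 and 0.403 CPM over the 6 libraries.

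The median log2 fold of the 9 genes that supply class I molecules was −0.08, with 3 of 9 above 0, and 0.03 without the 2 libraries that stood apart. B2m was at 376, 618 and 915 CPM in Tsc1-null EV lungs and at 1002, 507 and 784 CPM in WT EV lungs. Its log2 fold was −0.30 ± 0.35 (SE), with an adjusted p of 0.887 in limma. Tap1, a subunit of the peptide transporter, was at 25.1, 36.8 and 36.6 CPM in Tsc1-null EV lungs and at 40.1, 30.7 and 32.2 CPM in WT EV lungs. Its partner Tap2 spread the least of all 42 genes in SE, with 85.2, 87.1 and 79.6 CPM in Tsc1-null EV lungs and 91.7, 79.4 and 87.8 CPM in WT EV lungs. Its log2 fold was −0.04 ± 0.13 (SE), and the 95% interval of the fold ran from 0.788 to 1.21. Tapbp, which encodes tapasin, was at 287, 371 and 365 CPM in Tsc1-null EV lungs and at 406, 271 and 321 CPM in WT EV lungs.

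The immunoproteasome subunits Psmb8, Psmb9 and Psmb10 replace the constitutive catalytic subunits Psmb5, Psmb6 and Psmb7 in cells exposed to interferon gamma and in immune cells. Psmb8 was at 41.7, 75.4 and 82.6 CPM in Tsc1-null EV lungs and at 70.3, 68.5 and 74.4 CPM in WT EV lungs. Psmb9 was at 20.4, 38.4 and 38.2 CPM in Tsc1-null EV lungs and at 38.5, 36.0 and 37.8 CPM in WT EV lungs. Psmb10 was at 51.9, 99.0 and 81.0 CPM in Tsc1-null EV lungs and at 91.4, 83.0 and 90.1 CPM in WT EV lungs. The WT EV lungs were tightly grouped for all 3 subunits, and Tsc1-null EV replicate 1 stood below them all. The log2 folds were −0.15 ± 0.24, −0.26 ± 0.24 and −0.23 ± 0.23 (SE), with adjusted p-values of 0.929, 0.843 and 0.849 in limma.

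Set against the constitutive partner, each immunoproteasome subunit had a lower mean in Tsc1-null EV lungs, and each pair of groups overlapped. Psmb9 over Psmb6 was 0.175, 0.297 and 0.306 in Tsc1-null EV lungs and 0.348, 0.354 and 0.304 in WT EV lungs, an exact permutation p of 0.2. Psmb10 over Psmb7 was 0.721, 1.18 and 0.952 in Tsc1-null EV lungs and 1.26, 1.32 and 1.08 in WT EV lungs, also an exact permutation p of 0.2. Psmb8 over Psmb5 was 0.502, 0.606 and 0.820 in Tsc1-null EV lungs and 0.848, 0.782 and 0.688 in WT EV lungs, an exact permutation p of 0.3. A list of 16 proteasome genes outside the immunoproteasome subunits included Psmb5 to Psmb7 but was not limited to these replaced subunits. Of the 16, none passed the test and 14 were above 0 on the log2 scale. Their median was 0.14, against −0.02 over all genes. Psma6, a structural alpha subunit, was at 106, 110.1 and 100.2 CPM in Tsc1-null EV lungs and at 79.9, 87.7 and 93.2 CPM in WT EV lungs, without overlap (log2 fold 0.28 ± 0.14, adjusted p = 0.721 in limma). Psme1 and Psme2, the subunits of the PA28 activator of the proteasome, did not share the low value of Tsc1-null EV replicate 1. Psme1 was at 199, 213 and 183 CPM in Tsc1-null EV lungs and at 195, 168 and 183 CPM in WT EV lungs.

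**Figure D3:**
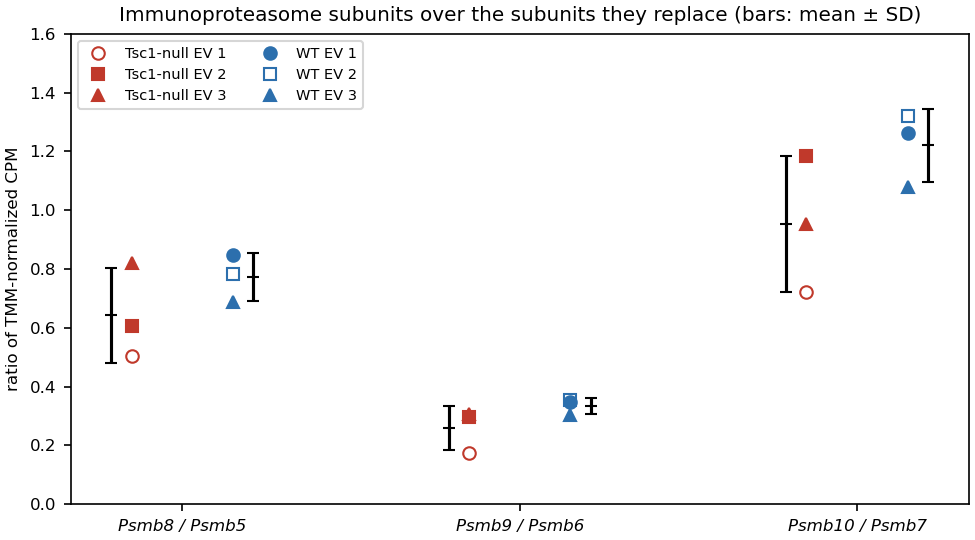
Ratio of each immunoproteasome subunit to the constitutive subunit it replaces, in TMM-normalized CPM, 1 point per lung beside a bar of the group mean ± SD, Tsc1-null EV left of WT EV. The Tsc1-null EV mean is lower for all 3 pairs, for example 0.259 against 0.335 for Psmb9 over Psmb6, and the points of the groups overlap in each.

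Of the class II genes, Cd74 and the chains of H2-A and H2-E were abundant, while the H2-DM genes were lower and H2-Oa, H2-Ob and H2-Eb2 did not exceed 1.66 CPM. The log2 folds of the 9 tested class II genes were all above 0, between 0.03 and 0.30. Their median was 0.09, against −0.02 over all genes, and none passed the test or separated the groups. H2-Aa, the alpha chain of H2-A, was at 355, 697 and 669.7 CPM in Tsc1-null EV lungs and at 655, 376 and 563 CPM in WT EV lungs. H2-Ab1, its beta chain, was at 228, 535 and 493 CPM in Tsc1-null EV lungs and at 501, 274 and 397 CPM in WT EV lungs. Cd74 was at 575, 1445 and 1554 CPM in Tsc1-null EV lungs and at 1446, 681 and 1077 CPM in WT EV lungs. Both libraries that stood apart were low for these genes, one in each group, and the other 4 lungs were higher. The log2 fold was 0.09 ± 0.31 (SE) for H2-Aa, with an adjusted p of 0.972 in limma, and 0.09 ± 0.42 for Cd74, with an adjusted p of 0.978 in limma. The 95% interval of the H2-Aa fold ran from 0.655 to 1.72.

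The direction of the class II median rested on single libraries. With Tsc1-null EV replicate 2 left out it was −0.11, with replicate 3 of that group left out −0.06, and with WT EV replicate 2 left out −0.07. With Tsc1-null EV replicate 1 left out it was 0.47. With WT EV replicate 1 left out it was 0.26, and with replicate 3 of that group left out 0.15. Without both libraries that stood apart it was 0.26, again with all 9 genes above 0. In that comparison H2-Aa, H2-Eb1, H2-Ea-ps and H2-DMb2 were higher in both remaining Tsc1-null EV lungs than in both remaining WT EV lungs, where 20.8% of all tested genes were.

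Within class II the chains kept their proportions from lung to lung. H2-Aa over H2-Ab1 was 1.56, 1.30 and 1.36 in Tsc1-null EV lungs and 1.31, 1.38 and 1.42 in WT EV lungs. H2-Eb1, the beta chain of H2-E, was at 157, 355 and 331 CPM in Tsc1-null EV lungs and at 302, 204 and 279.8 CPM in WT EV lungs. The alpha chain of H2-E was listed as H2-Ea-ps, at 79.8, 204 and 178 CPM in Tsc1-null EV lungs and at 151, 97.7 and 148 CPM in WT EV lungs. GENCODE annotates it as a polymorphic pseudogene, and the b haplotype of the reference strain is known not to express H2-Ea. Here all 6 lungs held reads under it, with 0.509, 0.574 and 0.539 of the H2-Eb1 value in Tsc1-null EV lungs and 0.499, 0.479 and 0.530 in WT EV lungs. The exact permutation p of that ratio was 0.2.

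The peptide editors of class II were lower in level. H2-DMa was at 32.5, 60.0 and 50.8 CPM in Tsc1-null EV lungs and at 53.1, 29.5 and 39.4 CPM in WT EV lungs, with a log2 fold of 0.22 ± 0.27 (SE). H2-DMb1 was at 18.2, 35.8 and 27.5 CPM in Tsc1-null EV lungs and at 32.1, 15.0 and 19.5 CPM in WT EV lungs, with a log2 fold of 0.30 ± 0.31 (SE) and an adjusted p of 0.866 in limma. Of the 50-base words, 22.7% in H2-DMb1 and 24.8% in H2-DMb2 also occur elsewhere, mostly in the other of the pair. H2-Oa, the alpha chain of the H2-DO inhibitor of H2-DM, lay at 1.08 to 1.66 CPM in Tsc1-null EV lungs and at 0.735 to 1.10 CPM in WT EV lungs. Its partner H2-Ob, which in lymphoid tissue is largely a B cell gene, averaged 0.714 CPM and H2-Eb2 averaged 0.113 CPM over the 6 libraries.

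**Figure D4:**
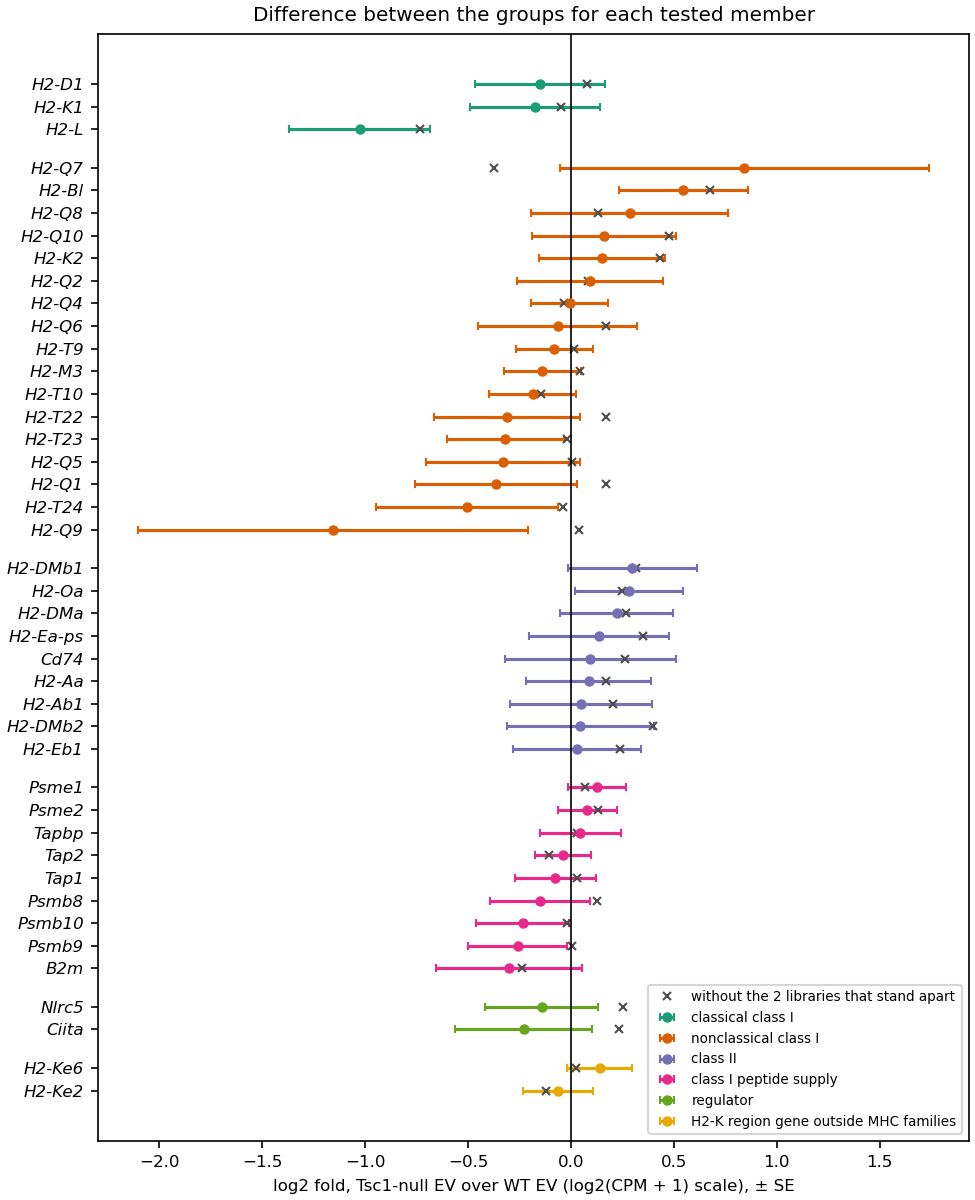
Log2 fold of Tsc1-null EV over WT EV on the log2(CPM + 1) scale for the 42 tested genes by class, with bars of ± SE from limma (n = 3 each); crosses are the values without the 2 libraries that stood apart. The class II points lie between 0.03 and 0.30, H2-Q7 and H2-Q9 have the widest bars, and many class I crosses lie nearer 0 than their points or on its other side.

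The regulators themselves were expressed at a few CPM. Ciita was at 2.61, 6.36 and 7.51 CPM in Tsc1-null EV lungs and at 5.00, 7.05 and 6.54 CPM in WT EV lungs, with a log2 fold of −0.23 ± 0.33 (SE) and an adjusted p of 0.914 in limma. Nlrc5 was at 3.01, 4.85 and 4.86 CPM in Tsc1-null EV lungs and at 3.66, 6.61 and 4.20 CPM in WT EV lungs, with a log2 fold of −0.14 ± 0.27 (SE) and an adjusted p of 0.941 in limma. Ciita was lowest in Tsc1-null EV replicate 1, where class II was also low, and highest within the WT EV group in replicate 2, where class II was low. Its part in the class II levels was not tested. Without the libraries that stood apart the log2 folds were 0.23 for Ciita and 0.25 for Nlrc5.

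Class I and class II promoters are known to share the SXY module, in which the X box is bound by the RFX complex and the Y box by NF-Y, and on which Nlrc5 or Ciita is recruited. The 250 bases before the start are shown for H2-D1 (chr17:35262844-35263093, plus strand), H2-Aa (chr17:34287824-34288073, minus strand) and H2-Eb1 (chr17:34305617-34305866, plus strand), as a class I and a pair of class II examples. They are RefSeq sequences on GRCm38.p6, 5′ to 3′ in the direction of the gene. Capitals mark matches on either strand to a Y box (CTGATTGG), an X1 box (AACNGATG) or a kappa B site (GGGATTCCC), letters that do not overlap one another here.
H2-D1: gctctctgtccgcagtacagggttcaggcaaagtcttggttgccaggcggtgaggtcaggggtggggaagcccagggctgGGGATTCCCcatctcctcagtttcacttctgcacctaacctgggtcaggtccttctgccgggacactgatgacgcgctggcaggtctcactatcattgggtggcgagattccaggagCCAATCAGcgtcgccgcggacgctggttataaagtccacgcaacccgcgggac
H2-Aa: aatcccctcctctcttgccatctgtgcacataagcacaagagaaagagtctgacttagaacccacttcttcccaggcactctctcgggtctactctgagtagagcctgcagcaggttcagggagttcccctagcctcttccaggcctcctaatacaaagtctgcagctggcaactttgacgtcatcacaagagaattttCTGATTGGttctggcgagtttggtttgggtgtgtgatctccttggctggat
H2-Eb1: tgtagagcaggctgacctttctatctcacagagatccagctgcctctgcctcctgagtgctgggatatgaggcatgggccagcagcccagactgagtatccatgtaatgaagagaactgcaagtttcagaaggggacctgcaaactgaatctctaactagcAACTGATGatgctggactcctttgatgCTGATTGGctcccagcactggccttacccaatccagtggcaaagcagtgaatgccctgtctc
The Y box starts at position −53 from the start of H2-D1, on the opposite strand, at −51 for H2-Aa and at −62 for H2-Eb1. H2-Eb1 also holds the X1 letters, at −89, and H2-D1 the kappa B letters, at −170. In windows from 250 bases before to 50 after the start, 19 of the 39 promoters matched to these genes held the Y box letters, where 4.31% of all 27025 promoters did. Among the 19 were genes below the filter, namely H2-Eb2, H2-M1, H2-M9, H2-M11 and several H2-M10 genes. Tap1 and Psmb9, whose windows overlap, hold the same Y box letters. The kappa B letters occurred in 4 of the 39 (H2-K1, H2-D1, H2-Q6 and H2-Q7), where 0.37% of all promoters held them. X1 letters were in 5 of the 39 (2.33% of all), and the letters TGACG of a cyclic AMP response element in 16 of the 39 (21% of all). The shared letters are a description of these windows, and no binding was measured here.

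Other genes of the pathway gave 0 calls in every list. Of 6 class II processing genes, 5 were above 0 on the log2 scale, and the median was 0.18. Ctss, the protease that trims the invariant chain, was at 81.2, 184 and 174 CPM in Tsc1-null EV lungs and at 159, 89.5 and 111 CPM in WT EV lungs, the same order of low libraries as Cd74. Ctsb, the most abundant of the list, was at 563, 880.1 and 782 CPM in Tsc1-null EV lungs and at 659, 421 and 613 CPM in WT EV lungs. Of 7 genes of the RFX, CREB and NF-Y factors, 4 were above 0, with a median of 0.0029. Of 8 class I loading partners, 4 were above 0, with a median of 0.0039. One of them, the tapasin homologue Tapbpl, was at 36.5, 41.5 and 39.0 CPM in Tsc1-null EV lungs and at 42.8, 42.0 and 43.6 CPM in WT EV lungs, also without overlap (log2 fold −0.13 ± 0.14, adjusted p = 0.863 in limma).

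On the interferon gamma route, 2 of 8 tested genes were above 0, with a median of −0.03. Ifng itself did not exceed 0.494 CPM in any lung. Irf1, an interferon-induced activator of class I promoters, was at 108, 121 and 116 CPM in Tsc1-null EV lungs and at 119, 136 and 140.3 CPM in WT EV lungs (log2 fold −0.19 ± 0.14, adjusted p = 0.794 in limma). The groups overlapped.

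Of the 42 tested genes, 28 were lowest in Tsc1-null EV replicate 1 and 11 in WT EV replicate 2, against 30.4% and 23.3% of all tested genes. The summed level of the 9 class II genes was 1455, 3354 and 3325 CPM in Tsc1-null EV lungs and 3158, 1690.2 and 2539 CPM in WT EV lungs. That of the 3 classical class I genes was 1161, 2083 and 2685 CPM in Tsc1-null EV lungs and 2415, 1694 and 2229 CPM in WT EV lungs. The highest class II sum thus stood in Tsc1-null EV replicate 2 and the highest class I sum in Tsc1-null EV replicate 3. H2-Aa over H2-K1, a class II to class I ratio, was 0.821, 0.906 and 0.709 in Tsc1-null EV lungs and 0.651, 0.646 and 0.727 in WT EV lungs. The means were 0.812 ± 0.099 and 0.675 ± 0.045 (SD, n = 3 each), with an exact permutation p of 0.2 (0.65 after adjustment over the 13 ratios).

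**Figure D5:**
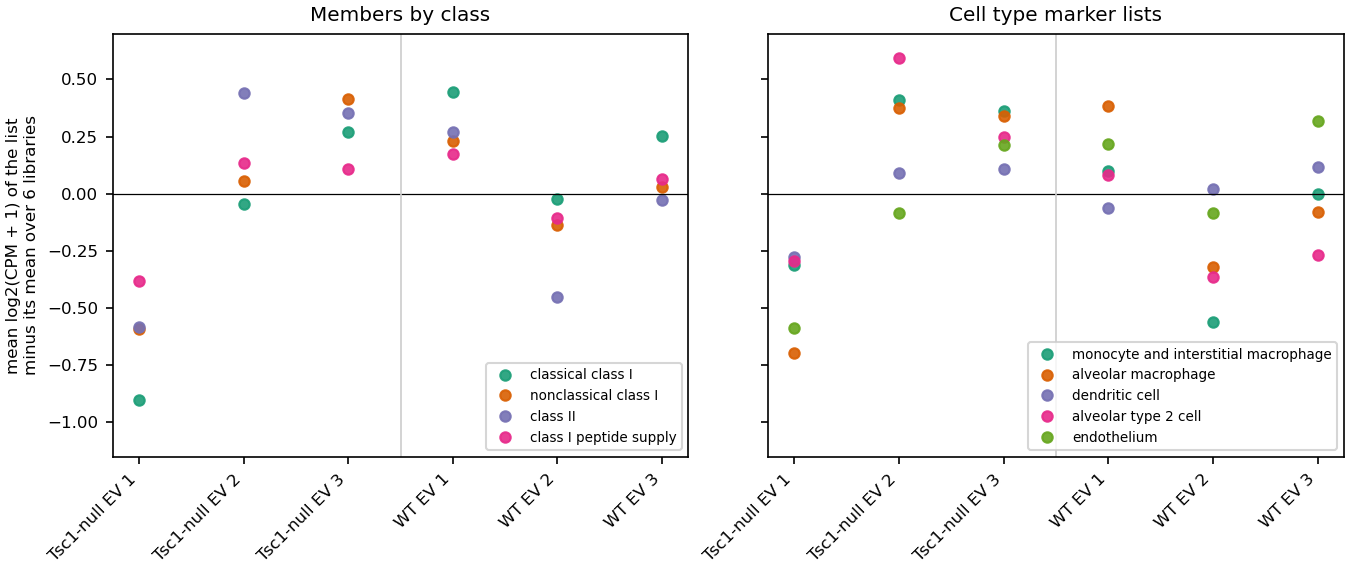
Mean log2(CPM + 1) of each gene class (left) and of 5 cell type marker lists (right) in each library, minus the mean of that list over the 6 libraries, Tsc1-null EV replicates left of WT EV replicates. All 4 classes are low in Tsc1-null EV replicate 1, class II is also low in WT EV replicate 2, and the marker lists of macrophages and alveolar type 2 cells are low in both of these libraries, while the dendritic cell list is not low in WT EV replicate 2.

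Markers of several cell types varied with the 2 libraries that stood apart, and no marker list was shown to differ between the groups. The part of these cell types in the MHC values was not tested. The summed level of 10 monocyte and interstitial macrophage markers ran from 306 to 491 CPM in Tsc1-null EV lungs and from 268 to 396 CPM in WT EV lungs, lowest in the 2 libraries that stood apart. Of these 10 markers, 9 had log2 folds above 0 (median 0.24). That of 7 alveolar type 2 cell markers ran from 21372 to 42667 CPM in Tsc1-null EV lungs and from 24015 to 31664 CPM in WT EV lungs, and all 7 log2 folds were above 0 (median 0.37). Among them the lipid transporter Abca3 did not overlap between the groups, with a log2 fold of 0.64 ± 0.19 (SE), an unadjusted p of 0.00954 and an adjusted p of 0.721 in limma. These markers were also low in WT EV replicate 3, where the mean class II level was close to its average. The summed level of 7 alveolar macrophage markers ran from 134 to 238 CPM in Tsc1-null EV lungs and from 135 to 287 CPM in WT EV lungs. Their log2 folds were above 0 for 4 and below 0 for 3 (median 0.12).

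How the 10 dendritic cell markers stood beside class II in WT EV replicate 2 depended on the measure. Their summed level was 60.1, 102 and 105 CPM in Tsc1-null EV lungs and 105, 90.1 and 99.8 CPM in WT EV lungs. That sum was the lowest of the WT EV group in replicate 2. The mean log2(CPM + 1) of these markers was instead 0.019 above its average in WT EV replicate 2, while that of class II was at −0.45. Unlike the class II genes, the 10 dendritic cell markers were split in direction, with 5 log2 folds above 0 and 5 below (median 0.05). Lower in the Tsc1-null EV group without overlap was 1 of the 10, where 6.22% of all tested genes were. Of the B cell markers, Cd79b was at 3.01 to 5.50 CPM in Tsc1-null EV lungs and at 3.23 to 4.20 CPM in WT EV lungs. Cd79a did not exceed 0.882 CPM, Ms4a1 did not exceed 0.123 CPM and Pax5 was at 0 in every library. Of the 5 T cell markers in the table, the receptor subunit Cd3e did not exceed 0.970 CPM, and the summed level of the 5 ran from 6.85 to 8.19 CPM in Tsc1-null EV lungs and from 6.91 to 7.35 CPM in WT EV lungs.

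Beside class I, the summed level of 10 endothelial markers, from cells rich in class I, ran from 2141 to 3857 CPM in Tsc1-null EV lungs and from 3085 to 4090 CPM in WT EV lungs. Of these 10 markers, 9 had log2 folds below 0 (median −0.33), where 47.3% of all tested genes were above 0. Lower in the Tsc1-null EV group without overlap were 2 of the 10, where 6.22% of all tested genes were. The sum of 7 NK cell markers was 34.3, 61.1 and 62.5 CPM in Tsc1-null EV lungs and 92.7, 48.4 and 55.9 CPM in WT EV lungs, with 6 of 7 below 0 (median −0.34). The libraries that stood apart also differed in surface and airway cells. The sum of 7 ciliated cell markers was 1889, 1007 and 957 CPM in Tsc1-null EV lungs and 961, 717 and 1008 CPM in WT EV lungs. That of 6 mesothelial markers was 235, 533 and 673 CPM in Tsc1-null EV lungs and 657, 1159 and 614 CPM in WT EV lungs. All 7 ciliated markers had log2 folds above 0 (median 0.65), 3 of them without overlap, where 6.86% of all tested genes were higher in that way. Of the 6 mesothelial markers 5 were below 0 (median −1.585), and 2 were lower without overlap, against 6.22% of all tested genes. Without the 2 libraries that stood apart the ciliated median was 0.11, with 5 of 7 above 0. The mesothelial median was then −0.17, with 2 of 6 above 0. No gene of any of these lists passed the test.

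The 39 H2- genes that GENCODE M21 annotates under their deposited symbols all lie on chromosome 17 between 33974659 and 37483552 of GRCm38, as do Tap1, Tap2, Tapbp, Psmb8 and Psmb9, 44 genes in all. B2m lies on chromosome 2, Nlrc5 and Psmb10 on chromosome 8, Psme1 and Psme2 on chromosome 14, Ciita on chromosome 16 and Cd74 on chromosome 18. H2-Ke6, a steroid dehydrogenase gene, and H2-Ke2, a prefoldin subunit gene, lie in the H2-K region and did not share their low values in Tsc1-null EV replicate 1. H2-Ke6 was at 52.5, 54.2 and 42.6 CPM in Tsc1-null EV lungs and at 47.0, 40.4 and 47.5 CPM in WT EV lungs, and 70.5% of its 50-base words also occur in an overlapping annotated gene. H2-Ke2 was at 33.9, 35.5 and 35.7 CPM in Tsc1-null EV lungs and at 33.2, 32.6 and 45.4 CPM in WT EV lungs.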

How the data were processed

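Total RNA of 6 mouse lungs went into paired-end Illumina sequencing, per the labels' protocols. The authors deposited a single table of a TMM-normalized signal for 24054 genes, 1 column per library, which was read as TMM-normalized CPM. The submitters' processing notes name Bowtie2 2.1.0, RSEM 1.2.15, edgeR and mm10, and give no roles. Which annotation, filters and strand setting were used is not given in the sources used here. Rat ELT3 reads that match mouse genes count as mouse here.

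Within a column all values were multiples of what 1 read is worth, so reads could be recovered (5101413 to 9358820 per library, with at least 99.9958% of values within 0.001 of a whole number). Whether these whole numbers are observed reads or rounded shares of reads divided between genes is not given in the sources used here. Libraries of the same group differed beyond counting noise (chi-square per degree of freedom 8.78 to 55.2), so none was taken as a copy of another. Groups were taken from the labels.

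Genes with a mean of at least 1 were tested with limma 3.58.1 (trend, R 4.3.3) on log2(CPM + 1), without covariates, and p-values were adjusted by the Benjamini-Hochberg method over all 14159 tested genes. Log2 folds are on that scale, which understates the change of low genes. Alternatives were a pseudocount of 0.5, no filter, a filter at a mean of 5, quantile normalization, edgeR 4.0.16 and DESeq2 1.42.0 on recovered reads, sample weights, each library left out, and, chosen after seeing the data, both libraries that stood apart left out. The count tests called 0 genes with edgeR and 11 with DESeq2, among them 0 MHC and antigen presentation genes. Ratios were compared by exact permutation tests. The tests were checked on simulated data.

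The genes, the pathway lists and the marker lists were chosen with earlier results of these data known. Every MHC and antigen presentation gene could be named; folds are given for those with a mean of at least 5 and for Ciita and Nlrc5, and other genes come from the pathway lists by the smallest p and the highest level, at most 4 a list plus the highest. Of the 56 symbols 51 matched GENCODE M21 and 39 matched RefSeq promoters. H2-Q8, H2-Q9, H2-L, H2-T9 and H2-Ke2 were not matched in GENCODE. Shared words were counted over 50 bases in GENCODE M21 transcripts. Python 3.11.15 was used for the rest.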

Additional observations from a re-analysis of the deposited data

How the results depend on the processing

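No paired analysis was possible because the labels give the 2 groups no shared replicate numbers. The counts of called genes were 0 with all libraries under a pseudocount of 0.5, no filter, a filter at a mean of 5, quantile normalization and edgeR, 11 with DESeq2 (7 higher, 4 lower), 1050 with sample weights, 25 without both libraries that stood apart, and 0 to 2 with 1 library left out. MHC and antigen presentation genes among them numbered 2 with sample weights (H2-Bl, log2 fold 0.74, and H2-L) and 0 under each other setting. The weights were 0.213 and 0.393 for the libraries that stood apart and 3.95 and 4.18 for the replicates given the most weight, so that fit rests mainly on 1 lung of each group. The genes whose groups did not overlap numbered 1 with all libraries, 0 under the filter at a mean of 5, which removes H2-L, 12 without both libraries that stood apart, and 2 to 10 of 42 with 1 library left out, where 18.8% to 29.1% of all tested genes did not overlap (10 of 42 against 29.1% without Tsc1-null EV replicate 1). The medians ran from −0.43 (without Tsc1-null EV replicate 3) to 0.15 (without replicate 1) for classical class I, −0.24 to 0.15 (the same libraries) for nonclassical class I, −0.17 (without Tsc1-null EV replicate 2) to 0.10 (without replicate 1) for peptide supply and −0.11 to 0.47 (the same libraries) for class II. Of 559 values of 40 genes under the alternatives, 85 of 34 genes had the other sign than with all libraries, none of them past the threshold, and the cause was not tested.

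With 1 library left out the log2 folds ran from −0.61 to 0.032 for B2m, −0.20 to 0.55 for Cd74, −0.47 to 0.15 for Ciita, −0.14 to 0.40 for H2-Aa, −0.19 to 0.44 for H2-Ab1, −0.43 to 0.20 for H2-D1, −0.23 to 0.50 for H2-DMb2, −0.12 to 0.55 for H2-Ea-ps, −0.18 to 0.41 for H2-Eb1, −0.41 to 0.15 for H2-K1 and −0.095 to 0.48 for H2-K2. They ran from −0.15 to 0.087 for H2-Ke2, −0.69 to 0.17 for H2-Q1, −0.075 to 0.59 for H2-Q10, −0.20 to 0.45 for H2-Q2, −0.12 to 0.14 for H2-Q4, −0.70 to 0.092 for H2-Q5, −0.35 to 0.39 for H2-Q6, −0.42 to 1.57 for H2-Q7, −0.18 to 0.74 for H2-Q8, −1.98 to 0.20 for H2-Q9 and −0.66 to 0.15 for H2-T22. They ran from −0.51 to 0.047 for H2-T23, −0.95 to 0.052 for H2-T24, −0.22 to 0.074 for H2-T9, −0.29 to 0.069 for Nlrc5, −0.44 to 0.023 for Psmb10, −0.33 to 0.15 for Psmb8, −0.41 to 0.033 for Psmb9, −0.012 to 0.13 for Psme2, −0.17 to 0.10 for Tap1, −0.096 to 0.0073 for Tap2 and −0.092 to 0.20 for Tapbp. Without both libraries that stood apart the log2 folds with the other sign were Ciita 0.23, H2-D1 0.080, H2-M3 0.046, H2-Q1 0.17, H2-Q5 0.0037, H2-Q6 0.17, H2-Q7 −0.38, H2-Q9 0.039, H2-T22 0.17, H2-T9 0.014, Nlrc5 0.25, Psmb8 0.12, Psmb9 0.0058 and Tap1 0.028. With sample weights they were Ciita 0.0031, H2-Q1 0.052, H2-Q6 0.27, H2-Q8 −0.65, H2-T9 0.0014, Nlrc5 0.14, Psmb10 0.055, Psmb8 0.025 and Tap1 0.11. With edgeR they were H2-Q4 0.0029 and H2-Q6 0.013, with DESeq2 H2-Q4 0.0088 and H2-Q6 0.013, and with quantile normalization H2-Q4 0.012. With 3 lungs a group the smallest SE of a log2 fold among these genes was 0.13 and the largest 0.95, and genes under a few CPM, such as H2-L, rest on fewer than 30 reads a library.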

Other observations

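Molecules with a class I fold outside the complex and the costimulatory ligands that accompany antigen presentation gave no calls. Mr1, which presents vitamin B metabolites to MAIT cells, was at 34.5, 24.6 and 25.4 CPM in Tsc1-null EV lungs and at 20.9, 16.3 and 23.8 CPM in WT EV lungs. The groups did not overlap, with a log2 fold of 0.45 ± 0.20 (SE, n = 3 each) and an adjusted p of 0.721 in limma, and the log2 fold was 0.16 without the 2 libraries that stood apart. Of the 5 tested genes of that list, 3 were above 0.

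Of 5 tested costimulation genes, 2 were above 0, and 3 did not overlap between the groups, where 13.1% of all tested genes did not. Cd274, the inhibitory ligand PD-L1, was at 9.42, 7.55 and 9.61 CPM in Tsc1-null EV lungs and at 13.4, 14.1 and 10.7 CPM in WT EV lungs. Its log2 fold was −0.48 ± 0.19 (SE), with an unadjusted p of 0.0375 and an adjusted p of 0.721 in limma, and −0.45 without the 2 libraries that stood apart. Cd40, the receptor through which T cells activate antigen-presenting cells, was at 5.01, 9.60 and 9.28 CPM in Tsc1-null EV lungs and at 11.0, 9.85 and 12.1 CPM in WT EV lungs (adjusted p = 0.741 in limma). Cd86, a ligand of CD28, was at 5.61, 6.79 and 6.08 CPM in Tsc1-null EV lungs and at 5.00, 5.14 and 4.81 CPM in WT EV lungs, without overlap (adjusted p = 0.80 in limma).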
